A study of Mus musculus with 8 samples.

Results

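Adipocyte identity genes were followed in dorsal skin of mice treated with a contact allergen. The genes were Adipoq, Lep, Retn, Cfd, Fabp4, Plin1, Cidec, Lipe, Pparg and Car3, 10 in all, and each was represented by every probe set that the platform annotation pairs with its symbol alone. That gave 15 of the 45101 probe sets on the array, for 8 of the 10 genes. Plin1 and Cfd had no probe set listed under their symbol or Entrez identifier and were not analysed here.

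The samples came from dorsal skin of Balb/c mice, with 1 array each. The sham group (n = 2) received no DNCB and no HY209, according to its titles and source names. The DNCB group (n = 3) had the hapten DNCB on the skin for 15 days and vehicle over the last 7 days. The DNCB+HY209 group (n = 3) had the same DNCB course and a 5% HY209-PEG gel over the last 7 days. In the sham samples' records the growth field nonetheless describes DNCB application, which bears on each comparison with sham. Nothing in the labels tells if a group's arrays represent different mice. The tissue was whole skin, in which fewer cells of a type and less RNA per cell cannot be told apart.

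Mouse dorsal skin has a layer of white adipocytes in the dermis, above a sheet of striated muscle, and this fat thickens and thins with the hair growth cycle. White adipocytes store triglyceride in a droplet coated by perilipin 1 (Plin1) and enlarged by Cidec, release it through lipases such as hormone-sensitive lipase (Lipe), carry fatty acids on Fabp4 and secrete the hormones adiponectin (Adipoq), leptin (Lep) and, in mice, resistin (Retn). The nuclear receptor PPAR gamma (Pparg) drives this program together with C/EBP factors. Several of the genes are not exclusive to fat: Fabp4 is also made by capillary endothelium and macrophages, Pparg by sebocytes and Car3, carbonic anhydrase 3, by skeletal muscle.

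Promoter sequences are shown for Adipoq, Retn and Cidec, the tested genes whose signals were lower on all DNCB-treated arrays than on both sham arrays, as described further on. Lep and Lipe were also lower there, but at near-background signals that were not tested, and their windows are not shown. RefSeq windows on GRCm38.p6, from 250 bases before to 50 bases after a start site, were found for 8 of the 10 genes (12 windows). Fabp4 and Car3 were not matched. The sequences are written 5′ to 3′ on the gene's strand. Capitals mark matches, on either strand, to DR1 (a PPAR-type element of 2 AGGTCA copies in tandem with 1 base between them), AGGTCA alone (which lies within it), TTGCNNAA (a C/EBP-type element), TATAAA or CCAAT.
Adipoq (chr16:23146286-23146585, + strand): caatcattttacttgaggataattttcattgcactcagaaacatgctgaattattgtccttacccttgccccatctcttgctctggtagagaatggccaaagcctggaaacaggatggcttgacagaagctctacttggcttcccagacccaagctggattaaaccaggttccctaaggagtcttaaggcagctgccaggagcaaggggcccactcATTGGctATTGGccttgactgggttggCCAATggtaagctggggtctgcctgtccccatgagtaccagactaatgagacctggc
Retn (chr8:3655520-3655819, + strand): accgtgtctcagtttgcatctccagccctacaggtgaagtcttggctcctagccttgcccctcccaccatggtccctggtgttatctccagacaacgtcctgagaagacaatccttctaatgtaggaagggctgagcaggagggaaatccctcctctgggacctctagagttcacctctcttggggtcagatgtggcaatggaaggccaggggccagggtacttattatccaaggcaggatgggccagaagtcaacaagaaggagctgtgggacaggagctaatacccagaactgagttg
Cidec start 1 (chr6:113435711-113436010, - strand): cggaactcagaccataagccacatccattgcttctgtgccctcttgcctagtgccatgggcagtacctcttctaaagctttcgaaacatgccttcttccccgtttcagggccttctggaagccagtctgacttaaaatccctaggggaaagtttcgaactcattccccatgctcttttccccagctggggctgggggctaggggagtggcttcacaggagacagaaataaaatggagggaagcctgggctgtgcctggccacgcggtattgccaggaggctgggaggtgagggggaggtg
Cidec start 2 (chr6:113434715-113435014, - strand): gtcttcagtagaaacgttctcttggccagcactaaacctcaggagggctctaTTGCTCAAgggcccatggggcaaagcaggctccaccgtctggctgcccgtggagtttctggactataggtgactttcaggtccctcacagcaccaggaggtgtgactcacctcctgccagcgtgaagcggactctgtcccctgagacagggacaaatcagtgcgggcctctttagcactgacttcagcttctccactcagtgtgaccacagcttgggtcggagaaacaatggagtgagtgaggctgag

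The Adipoq window held 3 CCAAT matches, at positions -34, -27 and -7 relative to the start site, and no match to the other elements. The second Cidec window held 1 C/EBP-type match, at position -198. The Retn window and the first Cidec window held none of the searched letters. Among all 12 windows, DR1 was found in 0, AGGTCA in 2, TTGCNNAA in 4, TATAAA in 1 and CCAAT in 3. Of the 32851 windows in the table, 0.0396% held DR1, 16.3% AGGTCA, 10.8% TTGCNNAA, 13.6% TATAAA and 37.4% CCAAT. A match is a string of letters and shows no binding.

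Signals are log2 values, so a difference of 1 is a doubling. The median of an array, from 4.07 to 4.22, serves as a rough mark of background, and log2 differences near or below it are approximate. A probe set was tested if it lay above that median on at least 2 arrays, which held for 24675 probe sets and for 10 of the 15 described here, covering Adipoq, Retn, Fabp4, Cidec and Car3. Probe sets differ in brightness for reasons other than transcript level, so no gene's level is set against another's, and brightness serves only to choose probe sets or to place them against the array median. Tests are limma with Benjamini-Hochberg adjustment over all 24675 probe sets and a threshold of 0.05.

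The arrays differed in technical measures. Gapdh probe sets at both ends of the transcript gave a 3′/5′ ratio, a sign of RNA quality, of 7.35 on DNCB array 3 and 2.10 to 4.46 on the others, and the mean log2 spike-in signal ran from 9.25 to 11.62. The keratinocyte genes Krt5, Krt14 and Krt1 and the fibroblast genes Col1a1, Col1a2 and Col3a1 were far above the array medians (means over all arrays of 9.52 to 13.43). They were chosen as the brightest genes of their lists, so high signals follow from the choice. Of the adipocyte markers, Adipoq, Retn and Fabp4 at 1417023_a_at and 1451263_a_at were well above the array median in sham. The other Fabp4 probe sets were dimmer there, with 5.37 and 4.47 at 1425809_at and 4.74 and 3.57 at 1424155_at. Lep and both Lipe probe sets lay below the array median on all 8 arrays, and Pparg on all but DNCB+HY209 array 1. Skeletal muscle genes were detected as well: the mean log2 signal of 18 of them was 8.85 and 10.38 in sham, 11.27, 10.59 and 9.20 in DNCB and 10.40 to 10.50 in DNCB+HY209.

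In DNCB-treated skin Adipoq, Retn and Cidec were lower than in sham skin on every array, by 5.79-fold for Adipoq, and none of these differences passed the test. Fabp4 overlapped between the groups, and Car3 had nearly the same mean in both.

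Adiponectin, the most abundant hormone of white fat, is represented by 1422651_at. Its log2 signal was 8.13 and 6.76 on the sham arrays, 6.08, 5.22 and 3.43 on the DNCB arrays and 4.87, 3.23 and 3.59 on the DNCB+HY209 arrays. Every array of the treated groups lay below both sham arrays, and DNCB array 3 and DNCB+HY209 arrays 2 and 3 lay below the array median. The group means were 7.45 ± 0.96 (SD, n = 2) in sham and 4.91 ± 1.35 (n = 3) in DNCB. The difference was -2.53 (SE 0.76, 95% interval -4.24 to -0.82, limma adjusted p = 0.183). Its size depended on single arrays: leaving out sham array 1 gave -1.85 and sham array 2 -3.22, while leaving out DNCB array 1 gave -3.12 and DNCB array 3 -1.80.

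Resistin, an adipocyte hormone of rodents, is represented by 1449182_at and lay above the median on all 8 arrays. Its log2 signal was 7.42 and 6.84 in sham, 6.13, 4.91 and 5.05 in DNCB and 5.30, 4.33 and 4.97 in DNCB+HY209. The sham arrays were again the highest, with no overlap. The difference of DNCB from sham was -1.77 (SE 0.41, 95% interval -2.70 to -0.83, limma adjusted p = 0.0975), a ratio of 3.4 and the closest of the tested members to the threshold in this comparison.

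Cidec, a droplet protein that lets small droplets feed larger ones, had a log2 signal at 1452260_at of 5.75 and 4.96 in sham, 4.81, 4.11 and 3.33 in DNCB and 4.02, 3.70 and 3.42 in DNCB+HY209. DNCB array 1 came close to sham array 2, and the groups did not overlap. DNCB array 3 and all 3 DNCB+HY209 arrays lay below the array median, and DNCB array 2 lay near it. The difference of DNCB from sham was -1.27 (SE 0.41, limma adjusted p = 0.215), an approximate size.

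Fabp4, the fatty acid carrier of adipocytes, had 4 probe sets. At the brightest, 1417023_a_at, the log2 signal was 11.73 and 10.34 in sham, 10.78, 10.16 and 8.60 in DNCB and 10.11, 8.71 and 9.28 in DNCB+HY209. DNCB array 1 lay between the sham arrays, so DNCB and sham overlapped, and DNCB array 3 was the lowest of all 8. The difference was -1.19 (SE 0.66, limma adjusted p = 0.40). Leaving out sham array 1 gave -0.49, sham array 2 -1.88 and DNCB array 3 -0.56.

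The second bright Fabp4 probe set, 1451263_a_at, ran in parallel, with 9.82 and 8.52 in sham, 9.04, 8.53 and 6.96 in DNCB and 8.23, 7.16 and 7.60 in DNCB+HY209. The remaining probe sets were dim. At 1425809_at the means were 4.92, 4.22 and 3.89 in sham, DNCB and DNCB+HY209. At 1424155_at they were 4.15, 4.54 and 4.0, so this probe set alone of the 4 was higher in DNCB than in sham (0.38, SE 0.45, limma adjusted p = 0.663). It is annotated to the same transcript record as 1451263_a_at, and its sign turned without sham array 2 (-0.20) or DNCB array 1 (-0.021).

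Car3, an abundant carbonic anhydrase of fat and slow muscle, did not follow the other genes. At 1449434_at the log2 signal was 11.98 and 12.82 in sham, 12.51, 12.79 and 11.78 in DNCB and 12.66, 12.64 and 12.47 in DNCB+HY209. The whole range over 8 arrays was 1.04 here and 2.85 at Car3 1460256_at, against 4.90 for Adipoq and 2.41 for Cidec. DNCB and sham differed by -0.04 (SE 0.31, 95% interval -0.75 to 0.66, limma adjusted p = 0.952). The second probe set, 1460256_at, read 8.23 and 9.17 in sham, 9.0, 9.73 and 6.89 in DNCB and 8.94, 9.27 and 9.40 in DNCB+HY209, with a difference of -0.16 (SE 0.70). The sign of these 2 differences turned in several alternative analyses. The third tested probe set, 1430584_s_at, ran from 4.52 to 5.81 and differed by -0.40 (SE 0.39).

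**Figure D1:**
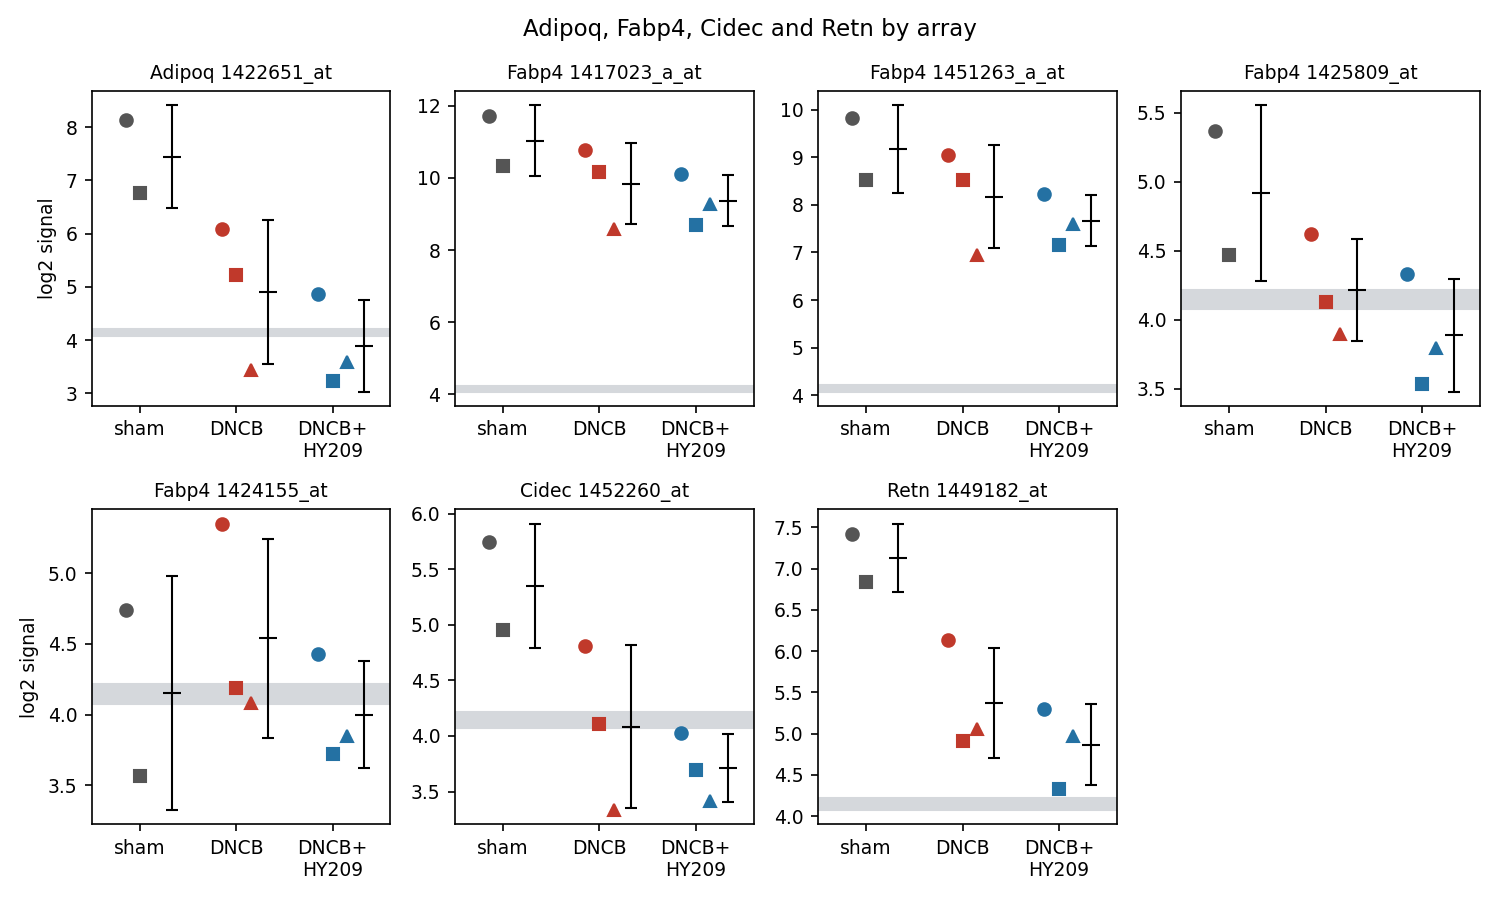
Log2 signal (y axis, scaled per panel) of the tested probe sets of Adipoq, Fabp4, Cidec and Retn in the 3 groups. Circles, squares and triangles are arrays 1, 2 and 3, the black dash and bars are mean ± SD (n = 2 for sham, 3 for the others), and the grey band spans the array medians. The sham arrays of Adipoq (8.13 and 6.76), Retn and Cidec lie above all treated arrays, and DNCB array 3 is the lowest DNCB array for Adipoq, Cidec and all 4 probe sets of Fabp4.

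In this comparison 0 of the 10 tested probe sets were called, against 0.956% of all tested probe sets. At an unadjusted p under 0.05, 3 were lower and 0 higher, against 4.54% lower and 10.7% higher among all. The 3 were Adipoq, Retn and Cidec, which also made up the 3 probe sets whose arrays did not overlap, all lower, against 12.6% lower and 21% higher with no overlap among tested probe sets. The median difference of the 10 was -0.85, and that of all tested probe sets 0.11. The 10 probe sets are not independent, since 4 belong to Fabp4 and 3 to Car3. Adipoq and Cidec were above the median on 5 and 4 arrays, among them both sham arrays and DNCB arrays 1 and 2.

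In DNCB+HY209 skin Adipoq, Retn, Cidec and Fabp4 had lower means than in DNCB skin and the bright Car3 probe sets higher means, and no probe set of any gene passed. Adipoq stood at 3.90 ± 0.86 (SD, n = 3) with HY209 and 4.91 ± 1.35 (n = 3) without. The difference was -1.02 (SE 0.68, 95% interval -2.55 to 0.51, limma adjusted p = 1). It was -0.43 without DNCB array 1 and -1.76 without DNCB array 3. The DNCB array 3 signal, 3.43, fell inside the range of the HY209 arrays.

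Retn differed by -0.50 (SE 0.37, 95% interval -1.33 to 0.33), Cidec by -0.37 (SE 0.37, -1.21 to 0.46) and Fabp4 at 1417023_a_at by -0.48 (SE 0.59, -1.82 to 0.85). Without DNCB array 1 these were -0.12, -0.01 and -0.01. Car3 at 1449434_at and 1460256_at was higher with HY209 by 0.23 (SE 0.28) and 0.66 (SE 0.62), and by -0.06 and -0.16, that is lower, without DNCB array 3.

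Of the 10 tested probe sets 0 were called, against 0% of all tested, by limma. None had an unadjusted p under 0.05, against 0.944% lower and 0.3% higher among all. None separated the groups, against 2.04% lower and 2.83% higher. The median difference was -0.43 against 0.03 for all tested probe sets. The intervals above still allow a decrease of Adipoq by more than 2 log2 units and a small increase.

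For Adipoq, Retn, Cidec and each Fabp4 probe set except 1424155_at, the widest differences were between DNCB+HY209 and sham. Sham is shared with the first comparison. Fabp4 1424155_at and the bright Car3 probe sets differed most in DNCB+HY209 against DNCB. Adipoq was 11.7-fold lower (-3.55, SE 0.76, 95% interval -5.26 to -1.84, limma adjusted p = 0.11), from a treated mean below the array median, so the size is approximate. Without sham array 1 the difference was -2.87, and without sham array 2 it was -4.23. Retn was 4.81-fold lower (-2.27, SE 0.41, limma adjusted p = 0.0684), Cidec 3.12-fold (-1.64, SE 0.41, limma adjusted p = 0.142) and Fabp4 at 1417023_a_at 3.17-fold (-1.67, SE 0.66, limma adjusted p = 0.24). The treated mean of Cidec, 3.71, also lay below the array median, so the size for Cidec is approximate.

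Here 0 of 10 probe sets were called, against 0.267% of all tested. Those at an unadjusted p under 0.05 numbered 6, all lower, against 5.66% lower and 12.9% higher among all, and the same 6 did not overlap with sham, against 14.2% lower and 26.7% higher. They were Adipoq, Retn, Cidec and 3 probe sets of Fabp4. The median difference of the 10 was -1.27, and that of all tested 0.15. The call of Retn depended on the setting: its limma adjusted p was 0.0438 after quantile normalization, 0.0155 with array weights and 0.0344 without DNCB+HY209 array 1. Adipoq reached 0.0251 with array weights and 0.0439 without DNCB+HY209 array 1, and Cidec 0.0494 with array weights.

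**Figure D2:**
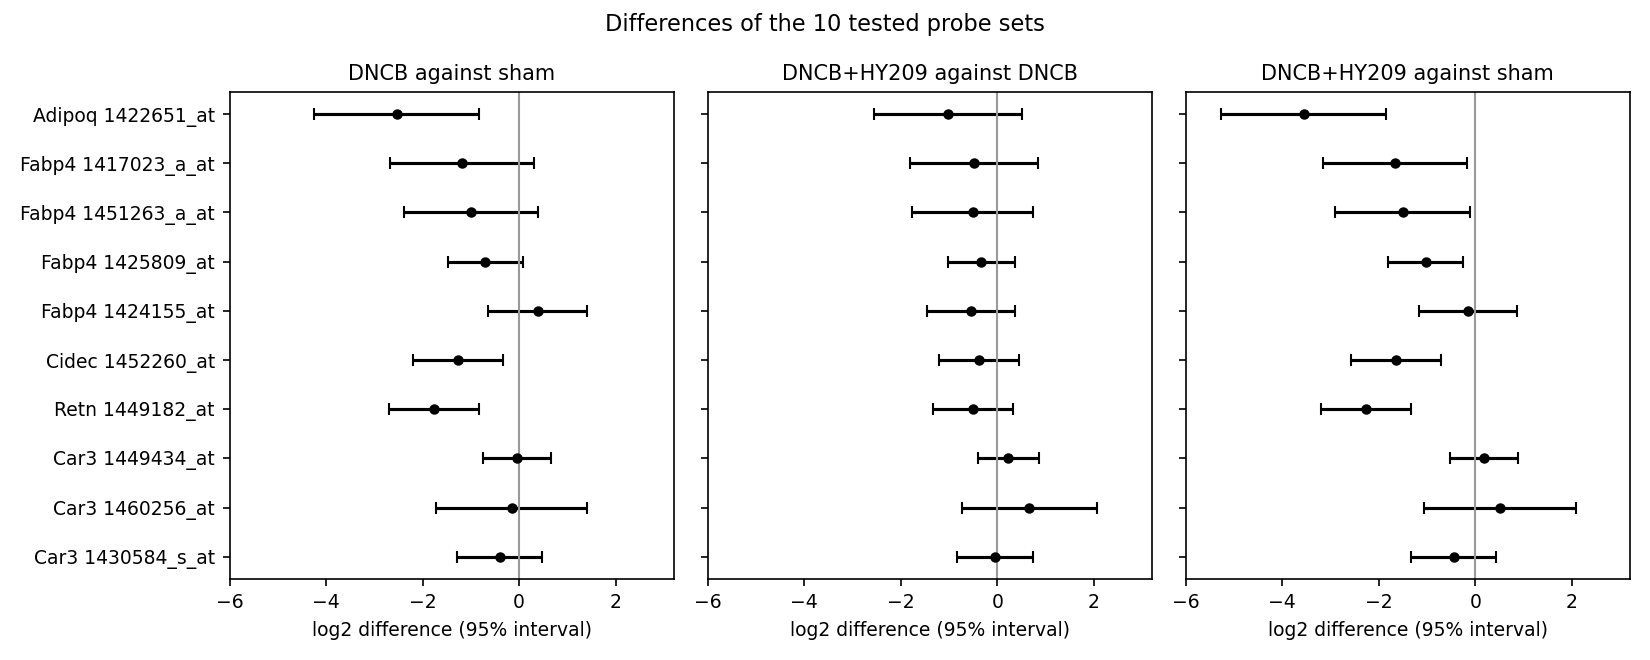
Log2 difference (x axis) of each of the 10 tested probe sets in the 3 comparisons, with 95% intervals from limma, unadjusted for the number of probe sets. Adipoq lies at -2.53, -1.02 and -3.55, and the Car3 intervals include 0 in all 3 panels.

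The 5 probe sets that did not pass the filter gave only near-background signals and were not tested. Lep at 1422582_at read 2.98 and 2.97 in sham, 2.74, 2.78 and 2.74 in DNCB and 2.61, 2.48 and 2.36 in DNCB+HY209. The 3 groups did not overlap, at levels below the median of every array. Hormone-sensitive lipase, Lipe, at 1422820_at had means of 3.77, 3.25 and 3.38 in sham, DNCB and DNCB+HY209, and at 1432180_at of 2.72, 2.36 and 2.41. Both treated groups lay below sham without overlap at both probe sets.

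Pparg at 1420715_a_at ran only from 3.75 to 4.28 over the 8 arrays, with means of 3.78, 3.88 and 3.97, and just DNCB+HY209 array 1 exceeded its array median. Every DNCB array lay above both sham arrays, the nearest pair by less than the second decimal shows. The fourth Car3 probe set, 1453588_at, ran from 2.07 to 3.28. Lower signals in both treated groups were common at this level: of all probe sets that failed the filter, 20.8% were lower without overlap in DNCB and 27.6% in DNCB+HY209, each against sham, and 3.75% were lower in DNCB+HY209 than in DNCB. The shares that were higher without overlap were 5.85%, 6.12% and 2.24%. Over all 15 probe sets, 6 were lower without overlap in DNCB, 1 in DNCB+HY209 against DNCB and 9 in DNCB+HY209 against sham, with 16.3%, 2.81% and 20.3% among all non-control probe sets. Higher without overlap were 1, 0 and 0 of the 15, the 1 being Pparg, with 14.2%, 2.56% and 17.4% among all.

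**Figure D3:**
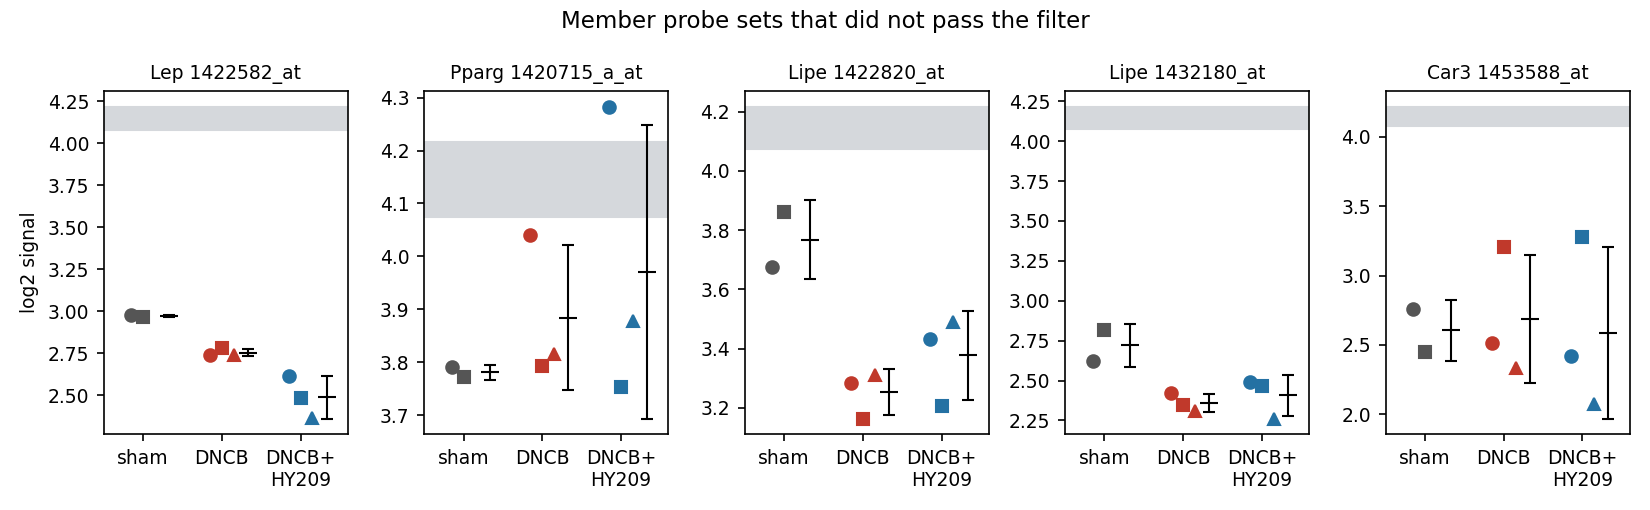
Log2 signal (y axis, scaled per panel) of the 5 probe sets that did not pass the filter, drawn as arrays (circle, square and triangle for arrays 1, 2 and 3) with mean ± SD, and the array medians as a grey band. Lep, at 2.36 to 2.98, and both Lipe probe sets lie under the band on all 8 arrays.

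Adipoq, Fabp4, Cidec and Retn varied together from array to array, also inside the groups. After each group's mean was subtracted, the deviations of Adipoq correlated over the 8 arrays with those of Fabp4 (1417023_a_at) at r = 0.99, of Cidec at 0.94 and of Retn at 0.77. The 2 bright Fabp4 probe sets correlated at 0.996. These values describe 8 arrays that share groups and RNA quality, and carry no test. DNCB array 1 was the highest DNCB array and DNCB array 3 the lowest for Adipoq, Fabp4 at 1417023_a_at and Cidec. DNCB+HY209 array 1 was the highest of its group for all 4 genes. Without subtraction, each gene's correlation with the mean of the other members was 0.99 for Adipoq, 0.97 for Cidec, 0.94 for Fabp4, 0.89 for Retn and -0.04 for Car3.

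The low array, DNCB array 3, was also the one with the Gapdh ratio of 7.35, and the part of RNA quality in its values was not tested beyond the covariate and leave-out analyses. Sham array 1, the highest for Adipoq, Retn, Cidec and 3 of the 4 Fabp4 probe sets, had a Gapdh ratio of 4.46 and the highest hair follicle signal (mean log2 signal of 15 genes 9.32, against 6.56 on sham array 2, 5.23, 5.50 and 7.49 in DNCB and 8.46, 6.13 and 6.25 in DNCB+HY209). With the Gapdh ratio, the hair follicle level or the muscle level as a covariate, 0 member probe sets were called in each comparison. The count was also 0 without a covariate, so it cannot show what part these measures had. Over the alternatives other than leaving out arrays, the Adipoq difference of DNCB from sham ran from -2.94 to -2.09, against -2.53 in the main fit.

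Both bright Car3 probe sets were lowest on DNCB array 3 and sham array 1. The same 2 arrays had the lowest skeletal muscle signal, 9.20 and 8.85, against 10.38 to 11.27 on the other 6. These 2 arrays also had the highest Gapdh ratios, 7.35 and 4.46, against 2.10 to 3.24 on the other 6. Car3 at 1430584_s_at did not share this order, with 5.44 on sham array 1, 5.15 on DNCB array 3 and its lowest value, 4.52, on DNCB+HY209 array 3. Its correlations with 1449434_at and 1460256_at were 0.10 and 0.02. The parts of muscle RNA and of RNA quality in the Car3 signal were not tested beyond the covariate and leave-out analyses. In the muscle list Myh2 was called higher in DNCB (4.45, SE 0.48, limma adjusted p = 0.00743) and in DNCB+HY209 (4.66, limma adjusted p = 0.0101), each against sham, and 17 of 18 genes did not pass. Both calls ended without sham array 1 (limma adjusted p = 0.0601 and 0.0907), and with the spike-in covariate (0.0658 and 0.105), and the second also without DNCB+HY209 array 2 (0.0676). The muscle genes with the brightest probe sets, Acta1, Myh1 and Tnnc2, differed in DNCB against sham by 0.66 (SE 0.81), 0.59 (SE 0.67) and 0.32 (SE 0.54).

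**Figure D4:**
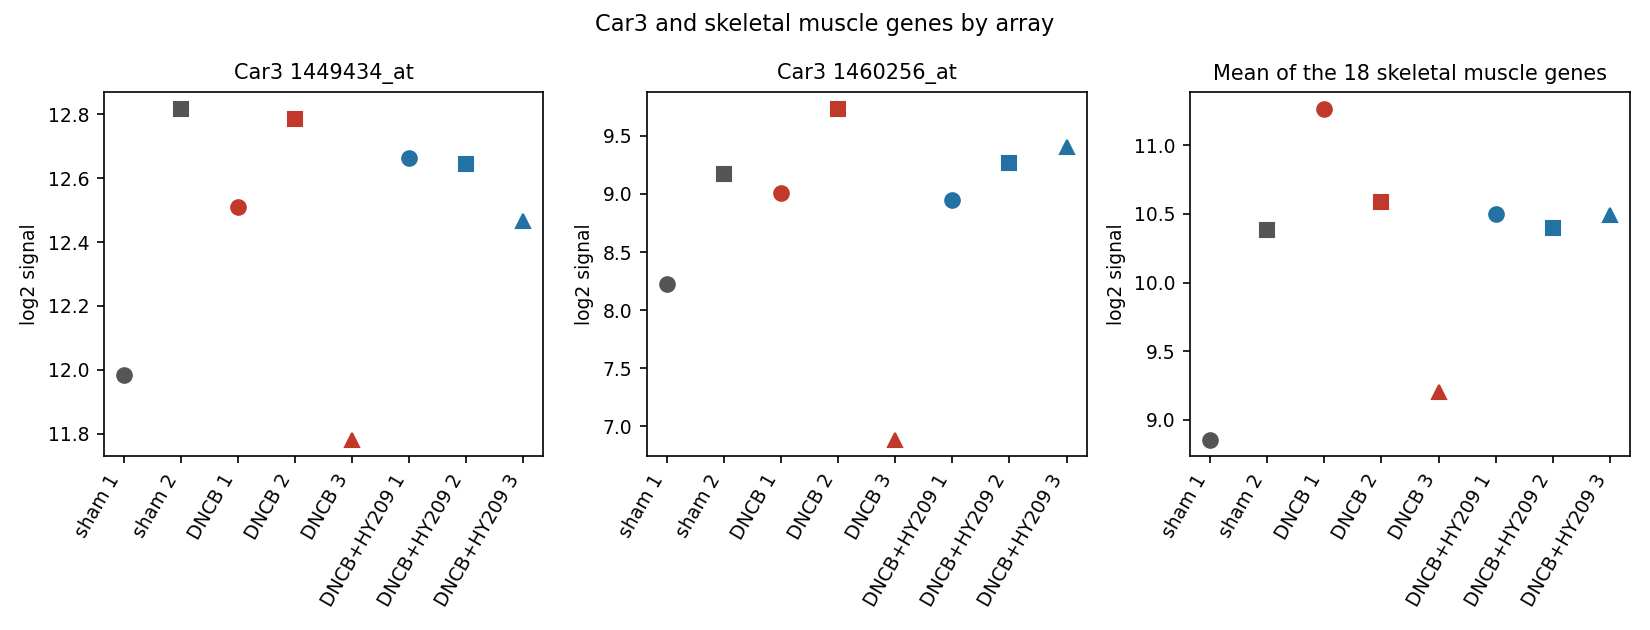
Log2 signal (y axis, scaled per panel) of the 2 brightest Car3 probe sets and the mean of 18 skeletal muscle genes on each of the 8 arrays (x axis), coloured by group. Sham array 1 and DNCB array 3 are the lowest in all 3 panels, with muscle means of 8.85 and 9.20. They also had the highest Gapdh ratios, 4.46 and 7.35.

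Genes whose log2 signal followed the mean of the 5 tested members most closely over the 8 arrays were Cdo1 (r = 0.97), Dio3os (0.96), Abi3 (0.95), Cyp2e1 (0.94) and Sult1a1 (0.94), the 5 highest among genes represented by their brightest probe set. Cdo1, a cysteine dioxygenase, read 5.83 and 5.50 in sham, 5.18, 4.04 and 3.60 in DNCB and 3.91, 3.29 and 3.4 in DNCB+HY209. Cyp2e1, a cytochrome P450, read 8.23 and 7.71 in sham, 6.43, 4.28 and 3.67 in DNCB and 3.95, 3.60 and 3.70 in DNCB+HY209. Both had the 2 sham arrays highest and DNCB array 1 next. Dio3os and Abi3 moved little, from 4.64 to 5.43 and from 4.58 to 5.17. The genes were chosen for this likeness among all genes tested, so the r values carry no test.

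No gene in the lists of other fat metabolism genes was called lower. Each gene in these lists is represented by its brightest tested probe set, of which 1.26% were called in DNCB against sham, 0% in DNCB+HY209 against DNCB and 0.33% in DNCB+HY209 against sham. Of 8 tested lipolysis and droplet genes 0 were called in any comparison, with a median difference of 0.09 in DNCB against sham, where the median of all genes was 0.15. Plin2, a droplet coat protein found in most cells, differed by -0.01 (SE 0.34), Mgll, which cleaves monoglycerides, by -0.32 (SE 0.48) and Abhd5, the activator of the main triglyceride lipase, by 0.63 (SE 0.37).

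Of 18 fatty acid and triglyceride synthesis genes 0 were called, with a median of 0.03. The desaturases Scd1 and Scd2 differed by -0.20 (SE 0.28) and 0.64 (SE 0.43), and Acly, which makes acetyl-CoA for synthesis, by -0.06 (SE 0.23). Of 7 uptake genes 1 rose, Fabp5, the fatty acid carrier of keratinocytes. Its log2 signal was 13.21 and 12.79 in sham, 14.25, 14.20 and 14.27 in DNCB and 13.99, 14.41 and 14.29 in DNCB+HY209. It rose by 1.24 (SE 0.16, limma adjusted p = 0.015) in DNCB and by 1.23 (limma adjusted p = 0.0257) in DNCB+HY209. The first call held in 17 of 22 alternatives and the second in 12 of 22. Both ended with the replicate block (limma adjusted p = 0.0835 and 0.127), with the spike-in covariate (0.124 and 0.219), without sham array 2 (0.0933 and 0.132) and without DNCB array 1 (0.0674 and 0.0625). The first also ended without DNCB array 2 (0.0528). The second also ended without sham array 1 (0.0545) or DNCB+HY209 arrays 2 (0.166) or 3 (0.114), with no intensity trend (0.0668), with only the 2 groups (0.0758) and with the muscle covariate (0.0533). The lipase Lpl, which frees fatty acids from circulating particles, differed by -0.31 (SE 0.32), and the transporter Slc27a4 by -0.15 (SE 0.41).

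Of 13 regulators of the adipocyte program 0 were called. Cebpa and Cebpb, transcription factors of adipogenesis that keratinocytes and leukocytes also express, differed by 0.57 (SE 0.36) and 0.32 (SE 0.21) in DNCB against sham, and Klf4 by -0.42 (SE 0.60). Of 5 brown fat genes 0 were called. Cox8b and Cox7a1, respiratory chain subunits that muscle shares, differed by 1.09 (SE 0.54) and 1.21 (SE 0.50), and Cidea by 0.31 (SE 0.52). Of 7 genes of adipocyte progenitors and stroma 2 rose in DNCB, Pdgfrb, a growth factor receptor of mural and progenitor cells (3.18, SE 0.50, limma adjusted p = 0.0282), and Icam1, an adhesion molecule (1.85, SE 0.34, limma adjusted p = 0.0455). The Pdgfrb call held in 13 of 22 alternatives and the Icam1 call in 7 of 21 (highest limma adjusted p 0.192 and 0.241). Both ended with the replicate block and with the spike-in, muscle and hair follicle covariates, and without either sham array, DNCB array 1, DNCB array 2 or DNCB+HY209 array 2. The Icam1 call also ended with median centring, no filter and array weights, and without DNCB array 3 or DNCB+HY209 array 3. Cd34 differed by -0.50 (SE 0.53). In DNCB+HY209 against DNCB none of these lists had a called gene.

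Markers of other cells that make some of these transcripts were measured beside them. Of 6 sebocyte genes 0 were called, with medians of 0.10 in DNCB against sham and 0.34 in DNCB+HY209 against DNCB, and Elovl3, Mgst1 and Krt79 differed by -0.09, -0.37 and 0.28 in the first. All 10 endothelial markers were higher in DNCB than in sham without overlap (median 1.5), where 21% of all tested probe sets were. Cdh5, the endothelial cadherin, rose by 2.20 (SE 0.34, limma adjusted p = 0.0275), a call that held in 13 of 22 alternatives (highest limma adjusted p 0.184), while Plvap and Esam differed by 1.83 and 1.19 and did not pass. The Cdh5 call ended with the replicate block and the spike-in, muscle and hair follicle covariates, and without either sham array, DNCB arrays 1 or 2 or DNCB+HY209 array 2. Of 13 macrophage genes 0 were called, with a median of 0.61. Of these, 6 were higher and 1 lower in DNCB without overlap, against 21% and 12.6% of all tested probe sets. Csf1r, C1qb and Lyz2 differed by 1.07, 1.14 and 0.61.

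The mean log2 signal of the endothelial list was 4.67 and 4.51 in sham and 5.54 to 6.37 in DNCB, and that of the macrophage list 5.33 and 5.65 in sham and 5.57 to 6.45 in DNCB. In DNCB+HY209 against DNCB the medians of these lists were -0.65 and -0.51, with 0 called. Lower without overlap were 3 of 10 endothelial and 1 of 13 macrophage genes, against 2.04% of all tested probe sets. Of 15 hair follicle genes 0 were called, with a median of -1.60 in DNCB against sham. The median was 0.89 in DNCB+HY209 against DNCB, where that of all genes was 0.03. There all 15 were higher in mean and 0 without overlap, against 2.83% higher without overlap among all tested probe sets. Krt25, Krt35 and Tchh differed in DNCB against sham by -2.65 (SE 1.19), -1.58 (SE 1.51) and -2.87 (SE 1.09). Of 6 keratinocyte genes 1 fell, Krt15, a keratin of basal and follicle stem cells, by 2.82 (SE 0.51, limma adjusted p = 0.0423), a call that held in 12 of 22 alternatives (highest limma adjusted p 0.298). It ended with median centring, the replicate block, the spike-in and muscle covariates, and without any 1 array other than DNCB+HY209 arrays 1 and 3. Krt5, Krt14 and Krt1 differed by 0.18, 1.24 and 1.92. Of 6 fibroblast genes 0 were called in DNCB against sham (median 0.23), with Col1a1, Col1a2 and Col3a1 at 0.61, -0.62 and 0.27. The medians of the fibroblast list were -1.02 in DNCB+HY209 against DNCB and -0.84 against sham, with 0 called. Lower without overlap were 4 of the 6 and 3 of the 6, against 2.04% and 14.2% of all tested probe sets. The part of these cells in the adipocyte values was not tested.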

How the data were processed

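Total RNA of frozen skin was amplified, labelled with biotin and hybridized to Affymetrix mouse arrays, per the labels' protocols. The labels name a smaller array type than the one to which the 45101 deposited probe sets are annotated. The deposited values are log2 signals per probe set, a scale read from their range. As software, Affymetrix Expression Console and the MAS5 method are listed, per the submitters' processing notes. Versions, order and normalization between arrays are not given in the sources used here. Values were used as deposited, without a pseudocount. Of the probe sets, 64 were controls, left out of the tests, 34945 had 1 gene symbol, 932 several and 9160 were not listed in the annotation.

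All 8 arrays entered a single limma fit (version 3.58.1, R 4.3.3) with an intensity trend, two-sided. It was run over 24675 probe sets above the array median on at least 2 arrays. The test was run on simulated data with independent noise for each probe set and array. The real arrays share deviations, so that run does not show how the test behaves on them. The p-values rest on array-to-array spread, which may be technical, and the number of arrays limits precision. Members and gene lists were chosen with earlier results of these data known. Named genes were all members, the 3 brightest genes of each other list, called genes of a list where 5 or fewer were called, and the 5 genes most correlated with the members. Alternatives were other normalizations, filters, variance models, covariates, the replicate number as a block and leaving out arrays. The hair follicle covariate was added after the data were seen. Figures were drawn with Python 3.11.15.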

Additional observations from a re-analysis of the deposited data

How the results depend on the processing

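Over 22 alternative settings, 0 member probe sets were called in DNCB against sham and in DNCB+HY209 against DNCB. In DNCB+HY209 against sham the count was also 0 in 19 of 22, and it was 1 after quantile normalization (Retn), 3 with array weights, whose estimation stopped before it converged, and, with 1 array left out at a time, 0 to 2. Adipoq, Retn, Cidec and the 3 other Fabp4 probe sets kept their sign in every setting in which they were tested.

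The sign turned in 26 of 633 values, 22 of Car3 and 4 of Fabp4 1424155_at, none of them called. In DNCB against sham Car3 1449434_at was 0.016 with median centring, and Car3 1449434_at and 1460256_at were 0.13 and 0.21 with the replicate block. Car3 1430584_s_at was 0.67 in DNCB+HY209 against DNCB and 0.12 against sham with array weights. In DNCB+HY209 against sham Fabp4 1424155_at was 0.069 and Car3 1460256_at -0.35 with the spike-in covariate. Car3 1449434_at and 1460256_at were there -0.033 and -0.085 with the Gapdh covariate, -0.19 and -0.32 with the muscle covariate and -0.021 and -0.0021 with the hair follicle covariate. With 1 array left out, the values ran in DNCB against sham from -0.46 to 0.37 for Car3 1449434_at, -0.75 to 0.67 for 1460256_at and -0.20 to 0.97 for Fabp4 1424155_at. In DNCB+HY209 against DNCB they ran from -0.057 to 0.45 and -0.16 to 1.26 for those Car3 probe sets and -0.44 to 0.21 for 1430584_s_at. In DNCB+HY209 against sham they ran from -0.23 to 0.61 for Car3 1449434_at and -0.74 to 0.43 for Fabp4 1424155_at. The cause was not tested.

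Same-numbered arrays of different groups had correlations of their deviations from -0.62 to 0.24, and differently numbered arrays from -0.66 to 0.61. The deviations of the 2 sham arrays mirror each other, so correlations with sham cannot show pairing. The numbers were not taken to pair the samples, which these values do not decide. With the replicate block the count of called members was 0 in each comparison, Adipoq stood at -2.09 in DNCB against sham, and the calls among all probe sets went from 236 to 20 in that comparison and from 66 to 8 in DNCB+HY209 against sham. Over all settings those calls ran from 11 to 519 and from 6 to 1125, and were 0 in DNCB+HY209 against DNCB. Signals near the array median limit Adipoq and Cidec with HY209, and Lep, Lipe and Pparg throughout.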
